A study of Mus musculus with 8 samples.

Results

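The angiotensin system was followed through 6 genes in rib chondrocytes, the cells that build growing cartilage. The genes are Agtr2, Agtr1a, Agt, Ace, Agtrap and Atp6ap2, and all probe sets annotated to one of these symbols alone were taken, 10 of the 45037 probe sets on the array that are not manufacturer controls. Agtr2 and Agtr1a have 1 probe set each, as does Agt, Ace and Agtrap have 2 each, and Atp6ap2 has 3. The set was chosen by the MAS5 signals of these same arrays, with the litter differences of Agtr2 in view, so the members' levels and their differences between genotypes are given as descriptions, with intervals and without p-values.

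The arrays compared Hoxd4-transgenic embryos with wild-type controls, both of the FVB strain at E18.5, shortly before birth. Hoxd4 encodes a homeobox transcription factor, and the comparison asks which transcripts differ when it is overexpressed in chondrocytes. The sources used here do not name the promoter that drives the transgene or the number of transgenic lines. Embryos of 4 litters were sorted by genotype, and digested rib cages gave 1 transgenic and 1 control pool per litter, 8 pools and 8 arrays in all. They give neither the number of embryos in a pool nor their sex.

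In this system renin cuts angiotensinogen, the product of Agt, and angiotensin-converting enzyme, the product of Ace, turns the resulting peptide into angiotensin II. The hormone acts on the AT1 receptor (Agtr1a in most mouse tissues), which drives vasoconstriction and growth, and on the AT2 receptor (Agtr2), which opposes many AT1 actions and is known for high expression in fetal mesenchymal tissues and low expression after birth. Agtrap binds the AT1 receptor and promotes its removal from the cell surface, and Atp6ap2, the prorenin receptor, is also an accessory subunit of the vacuolar proton pump.

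Agtr2 and Atp6ap2 both lie on the X chromosome, Agtr2 at chrX:21484624-21488833 and Atp6ap2 at chrX:12587759-12617051 (GRCm38.p6). Agtr1a is on chromosome 13, Agt on chromosome 8, Ace on chromosome 11 and Agtrap on chromosome 4. The promoters of the X-linked pair are shown because the pair share a chromosome and differ in spread: Agtr2 had a coefficient of variation of 34.5% over the 8 arrays, and the 3 Atp6ap2 probe sets had 8.4%, 7.9% and 5.8%. The probe sets 1427034_at of Ace (46.1%, mean signal 100) and 1422965_at of Agtrap (36.4%, mean signal 140) varied more than Agtr2. Each is the plus strand from 250 bases before to 50 bases after the RefSeq start, at chrX:21484374-21484673 for Agtr2 and chrX:12587509-12587808 for Atp6ap2. Capitals mark TAAT, the core that many Hox homeodomains bind, or its reverse complement ATTA.
Agtr2: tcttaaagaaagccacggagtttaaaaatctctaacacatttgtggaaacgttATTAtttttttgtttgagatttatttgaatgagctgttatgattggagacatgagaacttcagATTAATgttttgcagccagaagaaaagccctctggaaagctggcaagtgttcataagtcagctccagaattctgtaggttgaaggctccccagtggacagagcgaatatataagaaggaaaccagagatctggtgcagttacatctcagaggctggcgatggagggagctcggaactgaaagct
Atp6ap2: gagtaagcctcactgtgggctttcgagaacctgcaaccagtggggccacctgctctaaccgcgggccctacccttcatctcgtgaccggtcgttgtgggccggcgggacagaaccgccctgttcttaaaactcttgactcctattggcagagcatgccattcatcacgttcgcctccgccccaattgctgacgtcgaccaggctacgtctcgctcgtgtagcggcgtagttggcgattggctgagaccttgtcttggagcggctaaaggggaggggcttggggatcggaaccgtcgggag

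The Agtr2 window holds 3 matches to TAAT on either strand, starting 197, 134 and 132 bases before the start, and the last pair of these overlap. It also holds TATATAA, which resembles the box that positions transcription starts, beginning 28 bases before the start on the plus strand. The Atp6ap2 window holds neither motif. Of 32851 promoter windows of the same length, 58.0% hold at least 1 match to TAAT on either strand, 20.0% hold 3 or more and 2.20% hold TATATAA on the gene's strand. The Agtr2 window has 41.3% G and C and the Atp6ap2 window 60.3%, against a median of 52.7% over all windows. These matches describe the letters only.

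Signals are MAS5 values on a linear scale, with the trimmed mean of every array at 500. Array medians lay between 100.9 and 115, and Spearman correlations of array pairs ran from 0.932 to 0.942. Tests were run on log2(signal + 32) for the 22518 probe sets whose mean signal over the 8 arrays lay above the median of 105.9, and 9 of the 10 member probe sets were among them. The digests held chondrocyte transcripts and those of other tissues. All 14 chondrocyte markers were tested, with the collagen chain Col2a1 at 43440 ± 5866 in transgenic arrays and 42268 ± 3675 in control arrays (SD, n = 4 each), while all 6 kidney and liver markers on the array were dim. All 12 fibroblast and perichondrium markers were tested too, with the collagen chain Col3a1 at 40929 ± 2682 in transgenic and 39510 ± 944 in control arrays (SD, n = 4 each). Skeletal muscle actin, Acta1, had 9243 ± 1679 in transgenic and 8569 ± 2672 in control arrays, and the red cell gene Alas2 had 3475 ± 1094 in transgenic and 4247 ± 1426 in control arrays (SD, n = 4 each).

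The array has 2 probe sets for the overexpressed gene, both assigned to Hoxd4 and Hoxd3 together, and the arrays of litter 4 went against their labels at the brighter one. It had signals of 94.1, 415, 172 and 13.0 in arrays labelled transgenic, against 27.3, 42.6, 4.10 and 256 in arrays labelled control, in the order of litters 1 to 4. It was therefore the array labelled control that was brighter in litter 4. The other probe set was too dim to test, with 26.8, 11.4, 20.0 and 24.3 in arrays labelled transgenic, against 31.3, 8.92, 17.8 and 48.0 in arrays labelled control, and showed no excess in the transgenic arrays of litters 1 to 3. Each result below is given by label, and the differences of the tested member probe sets are also given without litter 4.

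Agtr2 was bright on every array, and its 2 arrays differed in each litter. Its signals were 5454, 6560, 6841 and 3384 in the arrays labelled transgenic of litters 1 to 4, against 2505, 3806, 4001 and 6687 in the arrays labelled control. The transgenic array was 2.18, 1.72 and 1.71 times as bright as the control array in litters 1, 2 and 3, and 0.506 times as bright in litter 4. The 4 brightest arrays were thus those labelled transgenic in litters 1 to 3 and that labelled control in litter 4, the same 4 as for the Hoxd4 and Hoxd3 probe set, and the groups overlapped, as they did for all 9 tested member probe sets. Over all tested probe sets, 2.27% had groups that did not overlap.

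**Figure D1:**
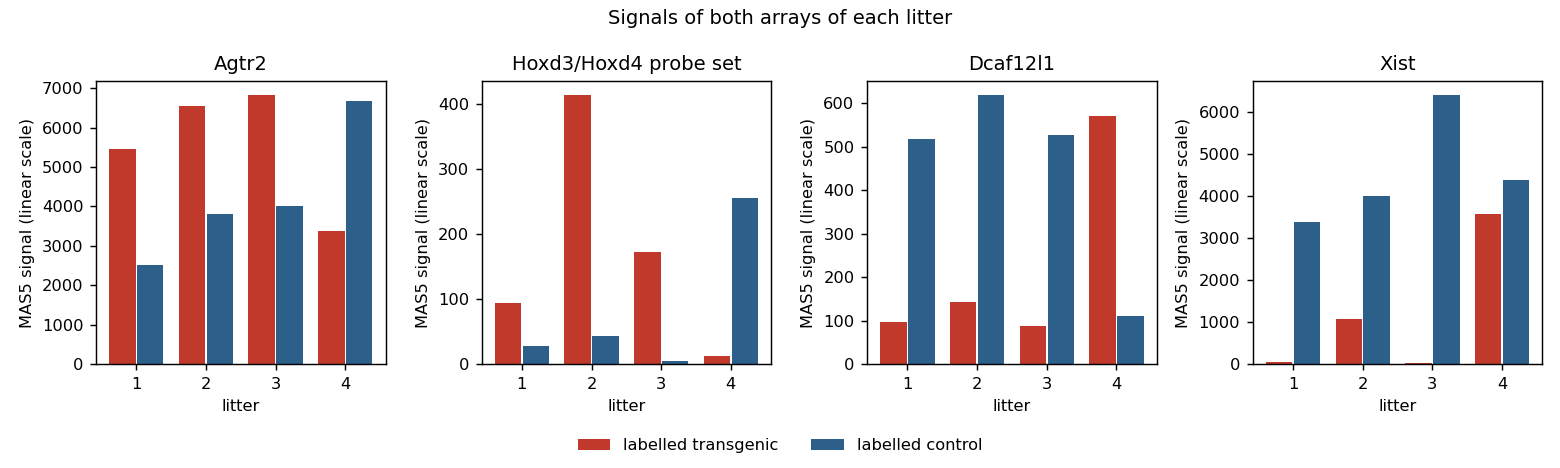
Signals (MAS5, linear scale) of both arrays of litters 1 to 4 for Agtr2, the probe set shared by Hoxd3 and Hoxd4, Dcaf12l1 and Xist, with 1 bar per array. Agtr2 was higher in the array labelled transgenic in litters 1 to 3 and lower in litter 4 (3384 against 6687), and Dcaf12l1 ran the opposite way in every litter.

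Over all arrays Agtr2 averaged 5560 ± 1569 in transgenic and 4250 ± 1755 in control pools (SD, n = 4 each), a fitted log2 difference of 0.42 (95% interval -0.12 to 0.96). Without litter 4, the only litter that ran the other way, the difference was 0.89 (95% interval 0.54 to 1.23). Agtr2 was chosen with its litter differences in view, and leaving out that litter could only raise the value. Leaving out only the control array of litter 4 gave 0.67, and leaving out only the transgenic array gave 0.64. Without litter 1 it was 0.19, still positive and the lowest of the values with a litter or array left out.

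The spread of Agtr2 was wide for a tested probe set. Its SD over the 8 arrays was 0.53 on the log2 scale, larger than that of 98.5% of tested probe sets, whose median was 0.17. An SD of at least 0.5 was found in 1.87% of tested probe sets, among them Agtr2 and 1 of Agtrap. A within-litter log2 difference of at least 0.75 in size in each of the 4 litters, whatever its direction, was found for 10 tested probe sets (0.0444%), of which Agtr2 was the brightest. That limit lies just under the smallest litter difference of Agtr2 itself, 0.77, so the share describes the limit and says nothing of how unusual Agtr2 is. In 7 of these 10 probe sets litters 1 to 3 ran one way and litter 4 the other. Beside Agtr2 and the Hoxd4 and Hoxd3 probe set, they were 2 of Dcaf12l1, 1 of Adamtsl2 and 2 that are unnamed here. Over all tested probe sets, litter 4 alone ran opposite to the rest in 10.6%, litter 1 alone in 12.2%, litter 2 alone in 11.7% and litter 3 alone in 15.8%. The 7 were picked on these same values by a limit taken from Agtr2, and 2 are of the same gene. The shares are therefore no test of them.

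Dcaf12l1 and Adamtsl2 are named because of these values. Dcaf12l1, an X-linked gene related to substrate receptors of cullin ubiquitin ligases, had signals of 95.6, 143, 86.4 and 571 in the arrays labelled transgenic of litters 1 to 4, against 517, 620, 526 and 109 in those labelled control. It was low in the 4 arrays where Agtr2 was high, and high in the other 4. Without litter 4 its 2 probe sets were the only ones of all tested that passed an adjusted p of 0.05 in limma (0.00888% of those tested). Their log2 differences were then -2.08 and -2.32, with an adjusted p of 0.0034 for both in limma. Litter 4 was the only litter where they ran the other way, so leaving it out could only enlarge these differences. The gene was named for its litter differences, so the result is no test of it. With all arrays no probe set passed.

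By a likeness rule, the 6 genes whose signals ran closest to those of Agtr2 over the 8 arrays were sought among 11012 genes, with Pearson's r on the log2 scale as a description. They were Dnttip2, a nucleolar protein (r = 0.95), Rlim, an X-linked ubiquitin ligase that acts in X inactivation (0.92), Rapsn, which clusters acetylcholine receptors at muscle endplates (0.92), Zfp318, a zinc finger protein (0.92), Adamtsl2, a secreted glycoprotein of the microfibril network (0.91), and Bak1, a pro-apoptotic Bcl2 family member (0.89). All 6 were higher in the array labelled transgenic in litters 1 to 3 and lower in litter 4, and the 8 arrays share their litters and labels. Genes picked for a high r with Agtr2 share its pattern by the rule, so this lends that pattern no support. The next gene had an r of 0.89 too, so the order among such genes is not sharp.

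**Figure D2:**
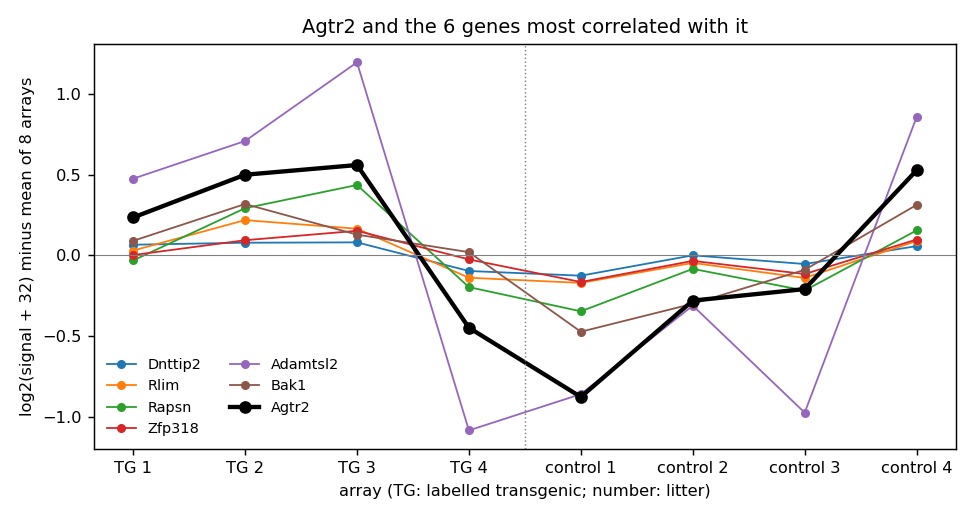
Signals of Agtr2 and the 6 genes most correlated with it, as log2(signal + 32) minus each gene's mean of 8 arrays, with arrays labelled transgenic (TG) on the left and controls on the right. Every line drops at TG 4 relative to TG 3 and is high at control 4. Adamtsl2 swings by more than Agtr2, and Dnttip2 spans only 1.16-fold.

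Adamtsl2 had the widest range of the 6, with signals of 152, 184, 271 and 30.3 in the arrays labelled transgenic of litters 1 to 4, against 40.8, 74.5, 35.2 and 207 in those labelled control. It spanned 8.94-fold from the dimmest to the brightest array, where Agtr2 spanned 2.73-fold. The 4 brightest arrays were the same for both genes, which the likeness rule favours. Dnttip2, the most correlated gene, varied far less, with signals between 997 and 1155, a span of 1.16-fold.

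As Agtr2 is X-linked, the levels of sex-linked transcripts are given beside it. Xist, the noncoding RNA of the inactive X chromosome, had signals of 43.6, 1062, 32.3 and 3561 in the arrays labelled transgenic of litters 1 to 4, against 3386, 3992, 6412 and 4380 in controls. The Y-linked gene Eif2s3y had 1178, 1127, 1100 and 813, against 616, 772, 358 and 486, and was higher in the transgenic array of all 4 litters. In litters 1 to 3 Xist was lower and Eif2s3y higher in the array labelled transgenic. In litter 4 the sex-linked probe sets did not run one way. The Xist probe sets had within-litter log2 differences of -0.30, -0.13 and 0.02, the brightest one of Eif2s3y had 0.71, the brightest of Uty 0.16 and the brightest of Kdm5d 0.02, the last pair being Y-linked as well. Their part in the difference of Agtr2 was not tested, and in litters 1 to 3 it cannot be told apart from that of the genotype. The 678 tested X-linked probe sets had a median log2 difference of 0.01 and the 18997 autosomal ones one of 0.00, and a spread at least as wide as that of Agtr2 was seen in 1.33% and 1.28% of them. These chromosome-wide values did not test the part of the sex-linked transcripts either.

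Atp6ap2, the other X-linked member, was among the steadiest. Its probe set 1437688_x_at had signals of 2763, 2633, 3340 and 3262 in arrays labelled transgenic, against 3027, 3091, 3314 and 3174 in controls. The transgenic arrays of litters 1 and 2 lay below all controls and the groups overlapped. The log2 difference was -0.08 (95% interval -0.26 to 0.10) for it and -0.08 (95% interval -0.26 to 0.10) for 1439456_x_at, whose signals ran from 1907 to 2383 in transgenic and from 2147 to 2368 in control arrays. Both are of a kind of probe set that can bind several transcripts. The remaining probe set, 1423662_at, had signals of 1114, 1254, 1183 and 1191 in transgenic arrays, against 1067, 1201, 1086 and 1219 in controls, and a log2 difference of 0.05 (95% interval -0.12 to 0.23). The 3 probe sets thus differed in sign, and every interval with all litters lay within 0.26 of no change. Without litter 4 the differences were -0.12 for 1437688_x_at, -0.12 for 1439456_x_at and 0.08 for 1423662_at.

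**Figure D3:**
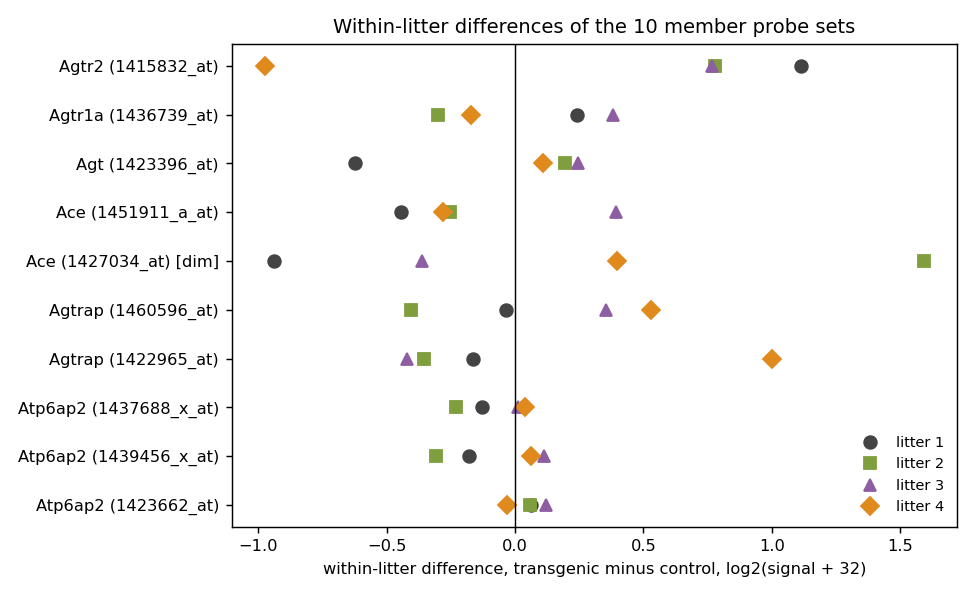
Within-litter differences (transgenic minus control, log2(signal + 32)) of all 10 member probe sets, with 1 marker per litter. Agtr2 lies at 0.77 or more in litters 1 to 3 and at -0.98 in litter 4. The 3 Atp6ap2 probe sets stay within 0.31 of 0 in all litters, and the dim Ace probe set scatters from -0.94 to 1.60.

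Agtr1a, the AT1 receptor gene, had signals of 609, 601, 683 and 585 in arrays labelled transgenic, against 509, 748, 517 and 663 in controls. The transgenic arrays all lay within the range of the controls. Its log2 difference was 0.04 (95% interval -0.23 to 0.31), and without litter 4 it was 0.11 (95% interval -0.23 to 0.44). Smooth muscle and pericyte markers, from cells known to carry this receptor, summed to 13473 to 15067 over 11 genes in transgenic arrays and 13409 to 14410 in controls, with Cnn1, a smooth muscle protein, too dim to test. The sum leaned on its brightest genes. Mean signals in transgenic and control arrays were 4215 and 4347 for Acta2, 4192 and 3925 for Cspg4, but 160 and 159 for Myh11. Of the 10 markers tested, 7 were higher and 3 lower with all litters, and 3 higher and 7 lower without litter 4. Their log2 differences with all litters ran from -0.23 for Notch3 to 0.12 for Abcc9. In such mixed digests, fewer cells of a type and less RNA per cell cannot be told apart.

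Agt, the gene of the hormone precursor, had signals of 285, 373, 376 and 418 in arrays labelled transgenic, against 456, 322, 312 and 386 in controls. It was lower in the transgenic array of litter 1, which held the lowest value while its control held the highest, and higher in the other 3 litters. The log2 difference was -0.02 (95% interval -0.33 to 0.30). Without litter 4 it was -0.06, and without litter 1 it was 0.18. Liver, the main source of circulating angiotensinogen, left little signal in the digests: the kidney and liver markers, all dim, summed to 143 to 330 in transgenic and 174 to 389 in control arrays.

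Ace, which encodes the enzyme that makes angiotensin II and is known from endothelium, was dim in both groups. Its brighter probe set, 1451911_a_at, had signals of 127, 119, 172 and 113 in arrays labelled transgenic, against 185, 148, 123 and 144 in controls. It was lower in the transgenic array of 3 litters and higher in litter 3, and the groups overlapped. The log2 difference was -0.15 (95% interval -0.53 to 0.24), and without litter 4 it was -0.10. Endothelium markers, 11 of 12 of them bright enough to test, had a median log2 difference of -0.20, with 7 lower, 4 higher and none past the adjusted threshold, and summed to 3096 to 4045 in transgenic and 3451 to 4377 in control arrays. Of these differences, the lowest was -0.60 for the endothelial cadherin gene Cdh5 and the highest 0.28 for Cldn5. The groups of Cdh5 did not overlap, as in 2.27% of all tested probe sets. The part of endothelium markers in the Ace value was not tested. The second Ace probe set, 1427034_at, fell below the filter, with signals of 53.8, 115, 86.6 and 162 in transgenic arrays, against 132, 16.8, 120.3 and 115 in controls.

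Agtrap, the AT1 receptor-binding protein, was dim as well, and its probe sets disagreed. The probe set 1460596_at had signals of 161, 180, 199.8 and 221 in arrays labelled transgenic, against 166, 248, 149 and 143 in controls, with a log2 difference of 0.11 (95% interval -0.27 to 0.49). The probe set 1422965_at had 177, 134, 109 and 117 in transgenic arrays, against 203, 181, 156 and 42.7 in controls. The second ran lower in the transgenic array of litters 1 to 3 and higher in litter 4, where its control was the dimmest array. Its log2 difference was 0.02 with all litters and -0.31 without litter 4 (95% interval -0.77 to 0.14), while that of the first was -0.03 without litter 4.

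**Figure D4:**
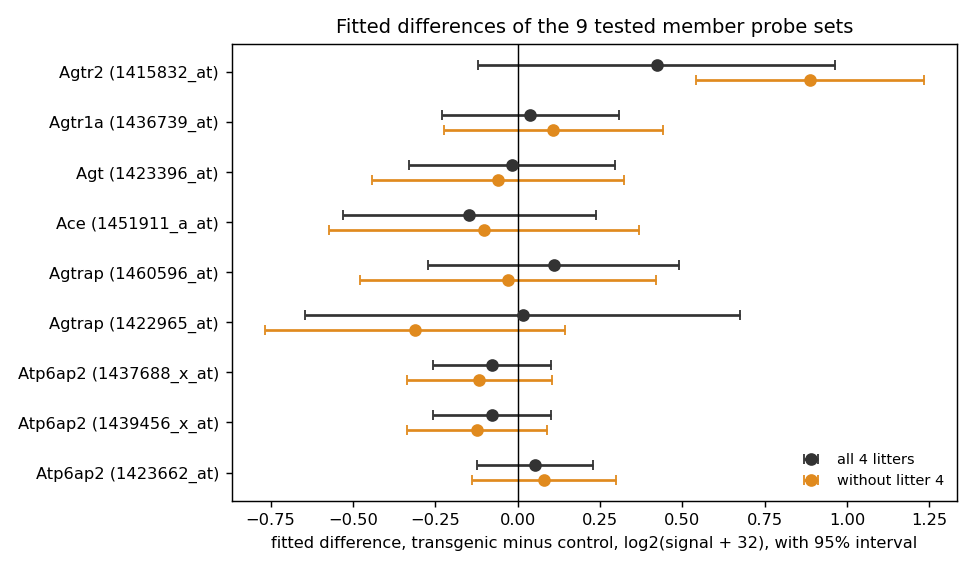
Fitted log2 differences (transgenic minus control, log2(signal + 32)) of the 9 tested member probe sets, with 95% intervals, for all 4 litters and without litter 4. Agtr2 lies at 0.42 with an interval across 0 with all litters and at 0.89 with an interval above 0 without litter 4. Litter 4 was the only litter where Agtr2 ran the other way, so leaving it out could only raise the value. The intervals of the other 8 cross 0 in both fits.

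Of the members, 5 of the 9 tested member probe sets had a positive and 4 a negative difference, with a median of 0.02 against 0.00 over all tested probe sets. None ran the same way in all 4 litters, which 13.4% of tested probe sets did. In 5 the litters split 3 to 1 and in 4 they split 2 to 2, against 50.4% and 36.2% of all tested probe sets. Apart from Agtr2, no tested member probe set differed by more than 0.15 on the log2 scale with all arrays. Of the other members' brightest probe sets, that of Agtr1a ran most like Agtr2 over the arrays (r = 0.51) and that of Agt least (r = -0.33), as descriptions over 8 arrays.

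None of the 22518 tested probe sets passed an adjusted p of 0.05 in limma with all arrays (0.0%), the lowest adjusted p being 0.57, and 740 (3.29%) had an unadjusted p under 0.05. With the litter as a block there were again 0 past the threshold and 1248 (5.54%) with an unadjusted p under 0.05. Without litter 4 that unadjusted count was 551 (2.45%). Of other genes of the pathway, 74 tested genes stood in 6 lists, and 0 passed in either direction.

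Of enzymes that make or break angiotensin peptides, 14 of 16 genes on the array were tested, 9 higher and 5 lower, with a median of 0.07. The tissue kallikrein gene Klk1, of a family of near-identical copies, had the smallest p (log2 difference -0.39, 95% interval -0.84 to 0.05, adjusted p = 0.9997 in limma). Cma1, a mast cell chymase that can make angiotensin II, was at 0.26 and Prep, prolyl endopeptidase, at 0.16. Enpep, which removes the first residue of angiotensin II, was at 0.05, and Mme, neprilysin, at 0.10.

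Of the other angiotensin and kinin receptors and the steroid arm, 8 of 11 genes on the array were too dim to test, among them Agtr1b, the second mouse AT1 receptor, Mas1, a receptor for a shorter angiotensin peptide, and the mineralocorticoid receptor Nr3c2. Agtr1b had signals of 93.8, 82.2, 134 and 124 in arrays labelled transgenic, against 70.5, 109, 111 and 120 in controls. The groups overlapped. The tested genes were Apln, the apelin precursor (-0.23), its receptor gene Aplnr (-0.12) and Hsd11b2, which inactivates glucocorticoids (-0.07).

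Partners of the AT2 receptor gave 9 higher and 3 lower of 12, with a median of 0.02. Mtus1, which binds the receptor's tail, was at 0.03 and Zbtb16, a zinc finger protein that also binds the receptor, at -0.07. The smallest p values belonged to Timp3, a metalloprotease inhibitor (-0.24), Ptpn6, the phosphatase SHP-1 (-0.20, lower in 4 of 4 litters), and Gnai1, an inhibitory G protein subunit (0.09). Signals of Mtus1 were between 1155 and 1201 in transgenic and between 1096 and 1290 in control arrays, so the groups overlapped.

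AT1 receptor signalling and trafficking genes gave 10 higher and 9 lower of 19, with a median of 0.01. Gna11, a G protein subunit that couples AT1 to phospholipase C, had a log2 difference of -0.15 (95% interval -0.31 to 0.02) and was lower in 4 of 4 litters. Plcb3, a phospholipase C, was at 0.21 and Rgs2, which shortens G protein signals, at 0.11.

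Of the vacuolar ATPase subunits, the pump that Atp6ap2 belongs to, 7 were higher and 8 lower of 15, with a median of -0.00. The subunit gene Atp6v0a1 had signals of 288, 302, 220 and 284 in arrays labelled transgenic, against 174, 280, 197 and 185 in controls, higher in 4 of 4 litters. Its log2 difference was 0.35 (95% interval 0.01 to 0.70, adjusted p = 0.9997 in limma), and it was the only one of the 74 with an unadjusted p under 0.05. Atp6v0b was at 0.12 and Atp6v1g1 at -0.11.

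Genes known to respond to angiotensin II in vascular cells had positive differences in all 11 tested cases, all small, between 0.01 and 0.13, with a median of 0.04. Without litter 4 the count was 8 of 11, with Ccn2 at -0.01, Nox4 at -0.12 and Cyba at -0.01. Of all tested probe sets, 51.2% had a positive difference with all arrays and 51.2% without litter 4. None had an unadjusted p under 0.05, and none passed the adjusted threshold. Those with the smallest p were Myc (0.12) and Fos (0.05), transcription factor genes that tissue dissociation also induces, and Tgfb1, the transforming growth factor (0.13).

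**Figure D5:**
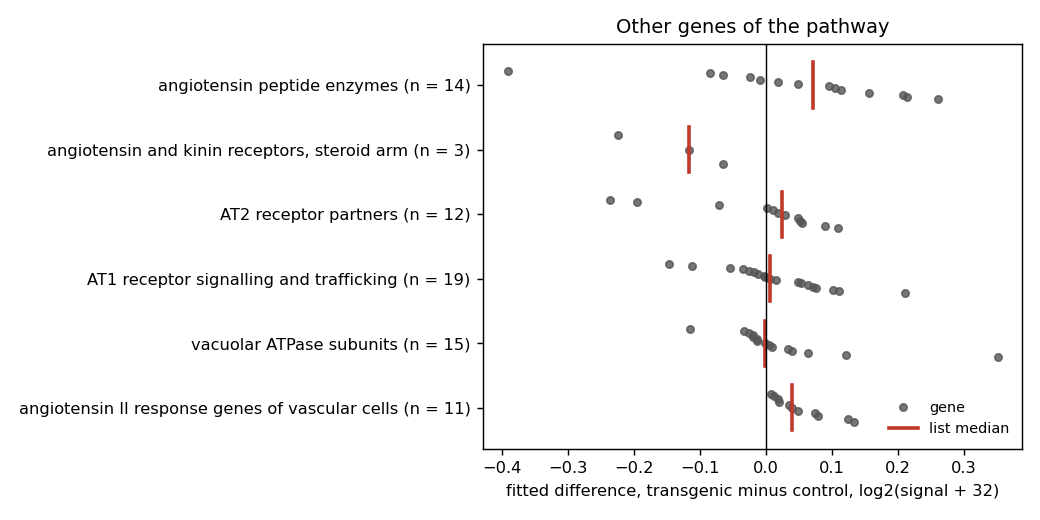
Fitted log2 differences (transgenic minus control, log2(signal + 32)) of the tested genes of 6 pathway lists, with 1 point per gene and a red line at each list's median. All points lie between -0.39 and 0.35, and the list medians lie between -0.12 and 0.07.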

How the data were processed

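Each array was deposited as 1 intensity per probe set, not log-transformed; MAS5 is the tool named in the submitters' processing notes, and the sources used here give no version, detection calls or scanner settings. The deposited intensities share a trimmed mean of 500 on every array (2% cut from each end). MAS5 subtracts mismatch signal, so dim probe sets are noisy. Per the labels' protocols, rib cages were digested with 0.25% collagenase and trypsin, and cells went through a 70 micrometre strainer.

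The 64 manufacturer controls were left out. Analysis used log2(signal + 32), which shrinks differences of dim probe sets, and kept probe sets whose 8-array mean exceeded the median. Limma 3.58.1 (statmod 1.5.0, R 4.3.3) fitted transgenic minus control with an intensity trend and Benjamini-Hochberg adjustment over 22518 probe sets. The fit was tested on simulated data. Errors are SDs over 4 arrays or 95% intervals, and the number of arrays limits the precision. Figures used matplotlib 3.10.9.

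Probe sets were named through GEO's platform annotation and looked up by gene identifier in the RefSeq table of GRCm38.p6, which changed 0 symbols: 34945 had 1, 932 several and 9160 none. Promoters are RefSeq's on GRCm38.p6, held for 5 of 6 members.

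The members and lists were chosen with earlier results of these data known. Named are all member probe sets, up to 3 genes per pathway list with the smallest p and the 6 genes most like Agtr2. Other genes named were chosen after their values were seen, for their role or their values. Replicate numbers mark litters, which pairs the arrays: deviations of same-litter arrays from their group means correlated at 0.28, 0.17, 0.04 and 0.14. The mean between litters was -0.05. Taking deviations from the group means forces that mean to offset the same-litter values, so it is no separate baseline. The chosen fit had no block. It was repeated with a block for litter (fixed, then random), other added constants, other filters, quantile normalization, no trend, and each array or litter left out. Pathway lists used the brightest probe set of a gene, and were repeated with the mean of its tested probe sets and without those ending in _x_at or _s_at.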

Additional observations from a re-analysis of the deposited data

Results flagged for a closer look

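Of 68 groups of 4 arrays examined, 4 held 1 array far from the other 3, where chance alone marks about 1 in 20 groups. The dim Ace probe set 1427034_at had a signal of 16.8 in the control array of litter 2, with the other controls between 115 and 132. Cma1 had 386 in the control array of litter 2, with the other controls between 238 and 261. Prep had 1256 in the transgenic array of litter 1, with the other transgenic arrays between 937 and 950. Dnttip2 had 1018 in the array labelled transgenic of litter 4, with the other transgenic arrays between 1143 and 1155.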

How the results depend on the processing

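Over the alternatives run, 495 of 503 values counted as unmoved. The limit was the spread between arrays for differences and medians, and 1.5 times for counts with an unadjusted p under 0.05. Counts past the adjusted threshold had to stay equal. Many values could not move, as stated below for the block, the filters and the trend. Agtr2, with its wide spread, counted as unmoved even at 0.19 and 0.89. The count of probe sets past the adjusted threshold in limma was 0 with all arrays, under every constant, filter, normalization and block, and ranged from 0 to 2 over fits that left arrays out. It was 1 without transgenic replicate 4 (Xist) and 2 without both arrays of litter 4 (Dcaf12l1). The litter block changed no call, and gave 1248 (fixed) or 1268 (random) probe sets with an unadjusted p under 0.05, against 740 without it, and the difference of Agtr2 was 0.42 with the fixed block too. That count was 1844 with no filter on dim probe sets and 305 with the stricter one. The difference of Agtr2, a gene chosen for its differences, ranged from 0.19 to 0.89 over the 12 fits that left arrays out. The block, the filters and the trend cannot move it, since they leave the group means as they are. Left-out arrays or litters took Agtr1a from -0.08 to 0.15, Agt from -0.11 to 0.18, Ace from -0.33 to -0.05, Agtrap (1460596_at) from -0.03 to 0.28 and (1422965_at) from -0.36 to 0.19, and Atp6ap2 (1437688_x_at) from -0.13 to -0.02. The median of the receptor and steroid list ranged from -0.342 to -0.0374 over fits that left arrays out, and that of the vacuolar ATPase from -0.0262 to 0.033. The cause of these moves was not tested. With 4 arrays a group the median 95% interval, not adjusted for the number of probe sets, reached 0.27 to either side. Smaller differences were mostly not detectable, and larger ones also failed the adjusted threshold, which no probe set passed with all arrays.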

Other observations

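At Agtr2, Adamtsl2, both probe sets of Dcaf12l1 and the probe set of Hoxd4 and Hoxd3, the within-litter log2 differences of litter 4 were -0.98, -1.94, 2.09, 2.25 and -2.68, while those of litter 1 were 1.11, 1.34, -2.10, -2.05 and 1.09. Of the 3 remaining probe sets with large differences in every litter, Wnt7b, a secreted Wnt ligand, ran lower in litters 1 and 2 and higher in litters 3 and 4, and 1 of Ets2, a transcription factor, ran lower in litter 2 alone. The last, 1 unnamed here, ran lower in litter 3 alone. These genes were named after their values were seen.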
